A study of Mus musculus with 6 samples.

Results

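Nqo1, Cbr3, Srxn1, Txnrd1, Gclc, Gclm, Gsr, Osgin1, Ugdh and Ephx1 are 10 textbook target genes of the transcription factor NRF2, and their transcripts were followed in the livers of ethanol-fed mice. They were picked by gene symbol from the 16135 genes of the deposited expression table, and all 10 were present. One genotype had Acss2 knocked out in hepatocytes (ACSS2-HKO, 3 libraries), and the control carried the floxed allele (ACSS2-flox, 3 libraries). The ACSS2 enzyme turns acetate, the product of ethanol oxidation in the liver, into acetyl-CoA. Every mouse of both genotypes was given the Lieber-Decarli liquid diet with ethanol during 10 days and then 1 ethanol binge, so no library shows a liver without ethanol. The study asked what ACSS2 does in alcoholic liver disease. The sources used here do not name the line that drives Cre, the deleted exons, or the age, sex and strain of the mice. Nor do they say whether each library is a separate animal, so the p-values describe the spread among these samples, part of which may be technical.

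NRF2, the product of Nfe2l2, is held in the cytoplasm by KEAP1, which passes it to a cullin ubiquitin ligase and so to the proteasome. Oxidants and electrophiles modify cysteines of KEAP1, and NRF2 then builds up, pairs with a small MAF protein in the nucleus and binds antioxidant response elements. Its targets reduce quinones, carbonyls, peroxides and disulfides, make glutathione, and prepare foreign molecules for conjugation. In hepatocytes, ethanol oxidation by CYP2E1 yields reactive oxygen species, and the NRF2 targets are among the genes that answer such stress.

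The antioxidant response element was looked for in RefSeq promoter windows (build GRCm38.p6), which run from 250 bases before to 50 bases after an annotated start. The table used here held 10 windows for 8 of the 10 genes, with 3 start sites for Txnrd1. Gclc and Gsr were not among them. The core was searched as TGACNNNGC and as TGAGNNNGC on both strands, the second spelling having been added after the first search, and the AP-1 motif as TGANTCA. TGAGNNNGC can overlap TGANTCA, as in the letters TGAGTCAGC. A core in either spelling lay in the windows of 5 of the 8 genes, namely Srxn1, Txnrd1, Gclm, Osgin1 and Ugdh. Counted by window, as the shares that follow are, a core lay in 5 of the 10 windows. Over all 32851 windows of this length, 12.4% held TGACNNNGC, 17.6% held TGAGNNNGC, 27.8% held either, and 7.81% held TGANTCA. These matches are letters in a window and say nothing of binding in these livers, and elements farther away lie outside the windows. The RefSeq starts of Osgin1 and Ephx1 lie inside the GENCODE gene spans given with their values.

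The 250 bases before the start are printed for the 3 genes that differed most between the genotypes (Nqo1, Cbr3 and Srxn1) and for the other genes with a core in that stretch. They read 5′ to 3′ on the gene's strand, and capitals mark the antioxidant response element core in either spelling, read on the same or the opposite strand. The stretches are Nqo1 at chr8:107403206-107403455, minus strand, Cbr3 at chr16:93682969-93683218, plus strand, Srxn1 at chr2:152105274-152105523, plus strand, the second start of Txnrd1 at chr10:82858956-82859205, plus strand, Gclm at chr3:122245307-122245556, plus strand, Osgin1 at chr8:119436897-119437146, plus strand, and Ugdh at chr5:65435843-65436092, minus strand.
Nqo1: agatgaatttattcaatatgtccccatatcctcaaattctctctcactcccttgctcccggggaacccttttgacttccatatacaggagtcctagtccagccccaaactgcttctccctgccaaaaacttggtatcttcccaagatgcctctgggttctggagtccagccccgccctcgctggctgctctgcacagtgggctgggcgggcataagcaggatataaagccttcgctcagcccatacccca
Cbr3: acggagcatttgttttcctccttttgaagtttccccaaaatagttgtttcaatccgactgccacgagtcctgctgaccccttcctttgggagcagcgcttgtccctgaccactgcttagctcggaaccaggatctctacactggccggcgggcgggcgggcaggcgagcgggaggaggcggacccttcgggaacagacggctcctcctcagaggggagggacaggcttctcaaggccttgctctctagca
Srxn1: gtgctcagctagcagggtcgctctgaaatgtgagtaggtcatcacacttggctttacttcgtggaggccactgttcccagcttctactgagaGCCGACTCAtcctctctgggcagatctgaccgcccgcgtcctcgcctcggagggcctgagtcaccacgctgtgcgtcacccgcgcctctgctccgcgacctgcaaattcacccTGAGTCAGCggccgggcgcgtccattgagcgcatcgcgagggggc
Txnrd1: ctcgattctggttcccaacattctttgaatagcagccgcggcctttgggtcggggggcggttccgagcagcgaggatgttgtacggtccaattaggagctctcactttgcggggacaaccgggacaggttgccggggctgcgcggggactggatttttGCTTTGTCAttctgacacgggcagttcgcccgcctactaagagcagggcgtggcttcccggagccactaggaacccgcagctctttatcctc
Gclm: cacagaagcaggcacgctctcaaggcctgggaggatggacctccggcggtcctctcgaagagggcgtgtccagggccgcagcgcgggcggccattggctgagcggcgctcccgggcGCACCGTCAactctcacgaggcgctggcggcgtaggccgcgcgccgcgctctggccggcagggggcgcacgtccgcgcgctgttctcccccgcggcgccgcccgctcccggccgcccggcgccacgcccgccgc
Osgin1: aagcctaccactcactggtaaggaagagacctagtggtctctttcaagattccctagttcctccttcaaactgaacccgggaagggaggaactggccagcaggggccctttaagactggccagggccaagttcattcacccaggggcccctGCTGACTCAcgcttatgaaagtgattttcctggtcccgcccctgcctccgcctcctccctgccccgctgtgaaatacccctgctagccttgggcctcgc
Ugdh: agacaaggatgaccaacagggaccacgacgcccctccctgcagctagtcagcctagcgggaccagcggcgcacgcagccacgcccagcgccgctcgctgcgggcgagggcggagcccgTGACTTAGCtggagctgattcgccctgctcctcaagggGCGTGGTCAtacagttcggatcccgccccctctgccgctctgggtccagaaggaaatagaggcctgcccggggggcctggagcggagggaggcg

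Srxn1 held 3 cores in its window, the most of the 8 genes. The letters TGAGTCAGC began 45 bases before its start on its own strand and contain an AP-1 motif, a core on the opposite strand began 158 bases before the start, and the remaining core lay 28 bases past it. Osgin1 carried TGAGTCAGC as well, on the opposite strand, with its first base 99 bases before the start. Ugdh had 2 cores, 132 and 94 bases before the start, and Gclm and Txnrd1 had 1 core each. The windows of Nqo1, Cbr3 and Ephx1 held none of the 3 motifs, so the genes that differed most by genotype include both windows with a core and windows without one.

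**Figure D1:**
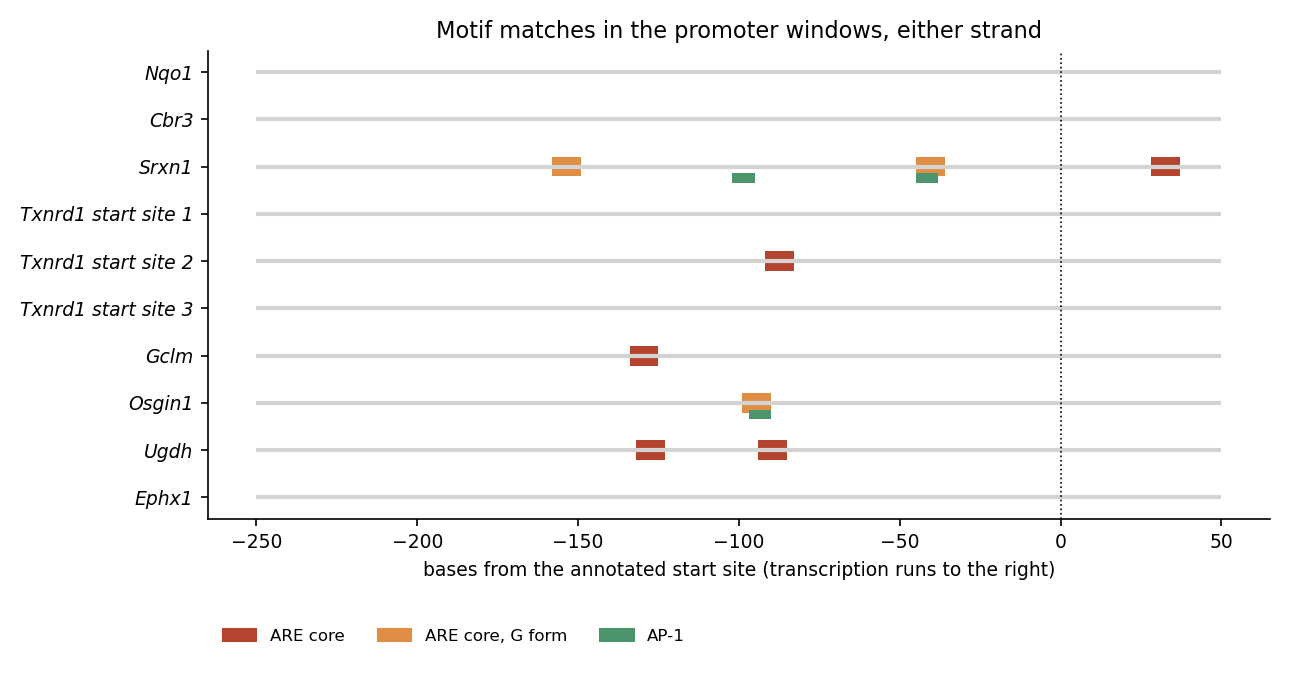
Positions of motif matches in the RefSeq promoter windows of 8 genes, 1 row for each window, with distance from the annotated start in bases on the horizontal axis. Red and orange blocks are the antioxidant response element core in its 2 spellings and green blocks the AP-1 motif, on either strand; Srxn1 has 3 cores and the windows of Nqo1, Cbr3 and Ephx1 have none.

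Expression was given as FPKM, fragments scaled to gene length and to the total of the library, so levels can be set side by side between genes. The implied library totals ran from 33717125 to 39474527 fragments. The test was limma on log2(FPKM + 1) over 9818 genes that averaged 1 FPKM or more, two-sided, and passed at a Benjamini-Hochberg adjusted p under 0.05. Each log2 fold change is the ACSS2-HKO mean minus the ACSS2-flox mean, given ± its standard error. The libraries farthest from the rest were ACSS2-HKO replicate 3 and ACSS2-flox replicate 1, at 27.6 and -47.7 on a first principal component that held 47.2% of the variance, against 2.51 to 8.49 for the other 4. Acss2 itself read 50.6, 38.4 and 45.7 FPKM in ACSS2-HKO livers, against 87.8, 61.5 and 58.5 FPKM in ACSS2-flox livers, without overlap. Its difference did not pass the test (log2 fold change -0.60 ± 0.21, limma adjusted p = 0.637). The fold change was -0.42 without ACSS2-flox replicate 1, its highest library. A whole-gene value also counts fragments outside the deleted part and from cells other than hepatocytes, so it is a partial check of the genotype. The labelled tissue was plain in the hepatocyte markers, which summed to 51342 to 61396 FPKM in ACSS2-HKO and 61788 to 99689 FPKM in ACSS2-flox libraries, with none of the 10 at 0.

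None of the 10 NRF2 targets changed by the test, as none of the 9818 genes did (0% called in each direction). Nqo1, Cbr3 and Srxn1 had an unadjusted limma p under 0.05, all higher in ACSS2-HKO, where 6.09% of all tested genes were higher at that level and 1.5% lower. The same 3 of 10 genes had ACSS2-HKO values that all lay above all ACSS2-flox values, which 12.5% of tested genes did, and none had the reverse, which 2.94% did. The log2 fold change was above 0 for 9 of 10 genes, against 66% of all tested genes, and Gclm was the exception. Cbr3 entered the test only through its ACSS2-HKO values and so had to differ. Among the other 9 genes, 2 had an unadjusted limma p under 0.05, 2 were higher without overlap and 8 were above 0. The median over the 10 genes was 0.42, against 0.10 over all tested genes. Without ACSS2-flox replicate 1 that median was 0.17, against 0.02 over all tested genes, and 7 of 10 genes were above 0, where 52.4% of tested genes were. The number without overlap was 3 there, against 16.5%, and 5 without ACSS2-HKO replicate 1, against 18.2%. Cbr3 is among the genes in each of these leave-out counts. Limma voom on the recovered fragments also called no gene.

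**Figure D2:**
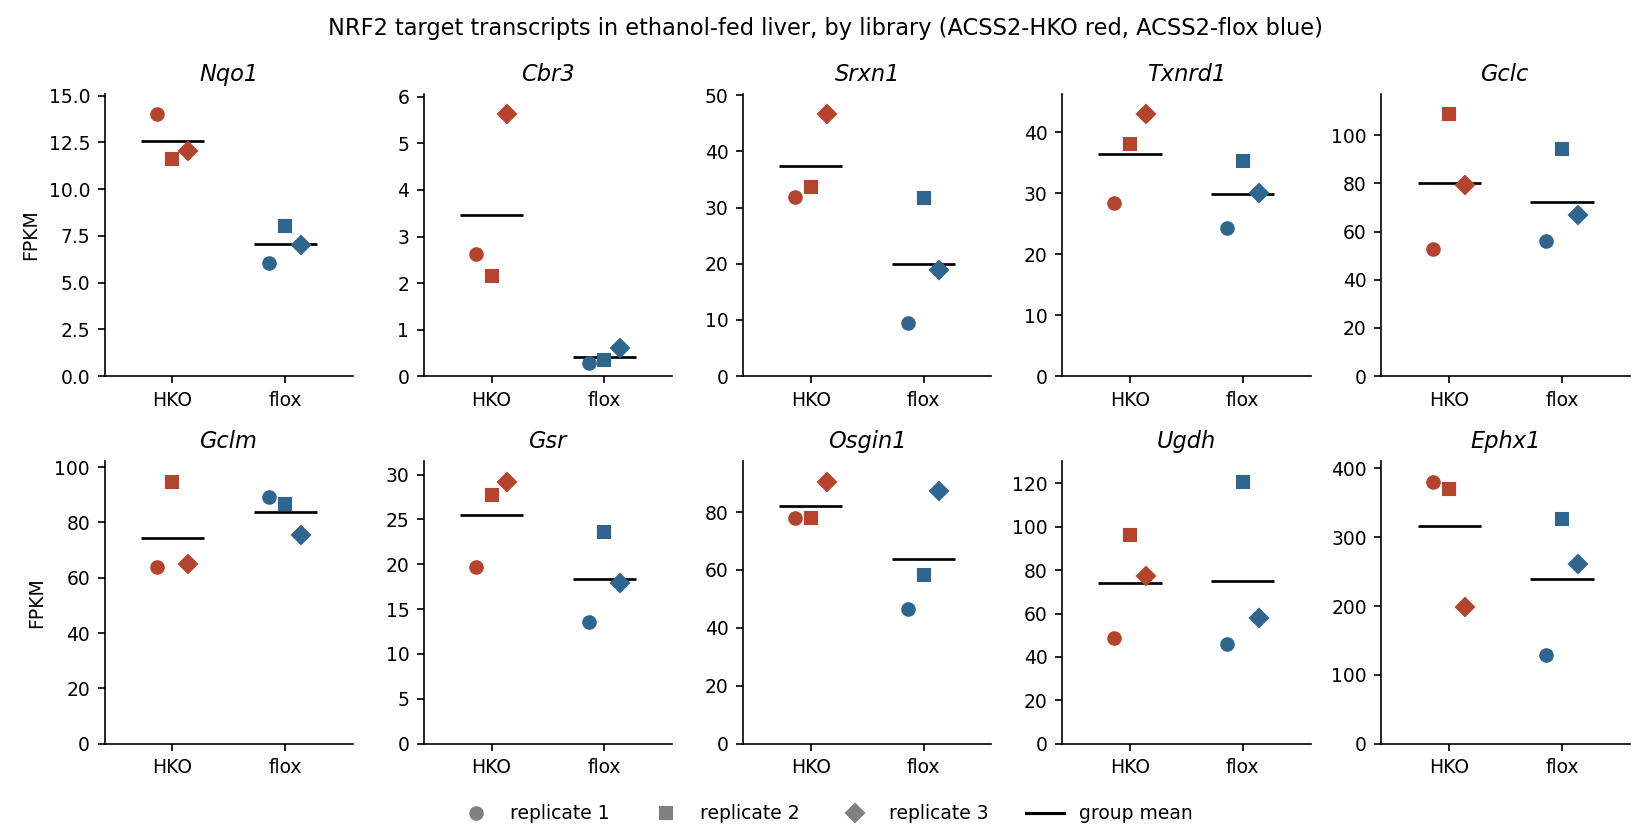
FPKM of each of the 10 NRF2 targets, with ACSS2-HKO libraries at the left in red and ACSS2-flox libraries at the right in blue, a symbol for each replicate number, and a black line at the mean of the 3 libraries. Nqo1, Cbr3 and Srxn1 are the genes whose 2 groups do not overlap, Srxn1 by a margin of 31.9 against 31.7 FPKM.

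The quinone and carbonyl reductases held the gene with the largest fold change of the 10, Cbr3, and the gene with the smallest standard error, Nqo1. Nqo1 (chromosome 8, 107388225 to 107403206, minus strand, GRCm38) encodes the NAD(P)H quinone dehydrogenase that reduces quinones directly to hydroquinones, and it is widely used as a readout of NRF2 activity. Its transcript read 14.0, 11.6 and 12.1 FPKM in ACSS2-HKO livers, against 6.06, 8.04 and 7.04 FPKM in ACSS2-flox livers. The lowest ACSS2-HKO value was well above the highest ACSS2-flox value, and the values within each genotype lay close together. Means were 12.6 ± 1.27 FPKM in ACSS2-HKO and 7.04 ± 0.988 FPKM in ACSS2-flox livers (SD, n = 3 each), and their ratio was 1.78. The log2 fold change was 0.76 ± 0.18, with a limma p of 0.00259, rank 45 among the tested genes, and an adjusted p of 0.554. The exact two-sided permutation p was 0.1, the smallest that 3 libraries against 3 allow. Leaving out each library in turn gave log2 fold changes of 0.67 to 0.84, and median-ratio scaling of the libraries gave 0.60. Each value rested on 911 to 1083 fragments in ACSS2-HKO and 447 to 654 fragments in ACSS2-flox libraries.

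Cbr3 (chromosome 16, 93683215 to 93690990, plus strand) encodes a carbonyl reductase of the short-chain dehydrogenase family. It read 2.62, 2.15 and 5.62 FPKM in ACSS2-HKO livers, against 0.28, 0.346 and 0.604 FPKM in ACSS2-flox livers. All ACSS2-HKO libraries were above all ACSS2-flox libraries, with ACSS2-HKO replicate 3 the highest by far. The values rested on 108, 90 and 259 fragments in ACSS2-HKO and on 11, 15 and 27 fragments in ACSS2-flox libraries. The 95% Poisson intervals, which cover counting error only, reached down to 1.73 FPKM in ACSS2-HKO replicate 2 and up to 0.878 FPKM in ACSS2-flox replicate 3. Means were 3.46 ± 1.89 FPKM in ACSS2-HKO and 0.410 ± 0.171 FPKM in ACSS2-flox livers (SD, n = 3 each), a ratio of 8.45. On the log2(FPKM + 1) scale, which understates the change of a gene this low, the log2 fold change was 1.59 ± 0.28 (limma p = 0.000393, rank 8, adjusted p = 0.452; exact permutation p = 0.1). It was 0.62 with a pseudocount of 5 FPKM, 2.73 with one of 0.1 FPKM and 2.99 in voom on the fragments, and its adjusted p ran from 0.0712 to 0.767 over the alternatives. Unlike Cbr3, the other 9 genes passed the filter on low values on their ACSS2-flox values alone. Without Cbr3 the median log2 fold change of the remaining 9 was 0.40.

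The closest relatives of these 2 reductases allowed a comparison within each library. Nqo2 read 32.4, 39.1 and 23.4 FPKM in ACSS2-HKO livers, against 30.3, 37.4 and 52.8 FPKM in ACSS2-flox livers, and its groups overlapped. The ratio of Nqo1 to Nqo2 was 0.431, 0.296 and 0.517 in ACSS2-HKO livers and 0.2, 0.215 and 0.133 in ACSS2-flox livers, again without overlap. Cbr1 was far more abundant than Cbr3, at 158 ± 31.0 FPKM in ACSS2-HKO and 120 ± 17.9 FPKM in ACSS2-flox livers (SD, n = 3 each). The ratio of Cbr3 to Cbr1 was 0.0151, 0.0120 and 0.0458 in ACSS2-HKO livers and 0.00199, 0.00311 and 0.00558 in ACSS2-flox livers. The ratio with Cbr3 did not overlap either, which the choice of Cbr3 by the filter made likely.

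In the thioredoxin system, Srxn1 was higher in all ACSS2-HKO libraries by a small margin, and Txnrd1 overlapped between genotypes. Srxn1 (chromosome 2, 152105516 to 152111376, plus strand) encodes sulfiredoxin, which restores overoxidised peroxiredoxins with ATP, and it is the gene with 3 cores in the window printed above. It read 31.9, 33.7 and 46.6 FPKM in ACSS2-HKO livers, against 9.43, 31.7 and 19.0 FPKM in ACSS2-flox livers. The highest ACSS2-flox library all but reached the lowest ACSS2-HKO library, and the groups overlapped after median-ratio scaling and after the correction for gene length. Means were 37.4 ± 7.99 FPKM in ACSS2-HKO and 20.01 ± 11.2 FPKM in ACSS2-flox livers (SD, n = 3 each). The log2 fold change of 1.0 ± 0.38 (limma p = 0.0289, adjusted p = 0.637; exact permutation p = 0.1) was 0.57 without ACSS2-flox replicate 1 and at most 1.39 with another library left out. Its ratio to Prdx1, which encodes a peroxiredoxin that sulfiredoxin repairs, was 0.0418, 0.0321 and 0.0583 in ACSS2-HKO livers and 0.0128, 0.0410 and 0.0239 in ACSS2-flox livers, with overlap.

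Txnrd1 (chromosome 10, 82833951 to 82897712, plus strand) encodes the cytosolic thioredoxin reductase, which passes electrons of NADPH to thioredoxin. It read 28.5, 38.1 and 43.0 FPKM in ACSS2-HKO livers, against 24.3, 35.4 and 30.1 FPKM in ACSS2-flox livers. The log2 fold change was 0.27 ± 0.22 (limma adjusted p = 0.779), within the spread between libraries, and 0.11 after median-ratio scaling. Eid3 overlaps Txnrd1 on the same strand in GENCODE M21 and is also in the table, and the sources used here do not say how fragments of the shared stretch were divided.

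The fold changes of the glutathione genes lay on both sides of 0. Gclc and Gclm encode the catalytic and the modifier subunit of glutamate-cysteine ligase, the rate-limiting enzyme of glutathione synthesis, and Gsr encodes glutathione reductase, which returns oxidised glutathione to its thiol form. Gclc (chromosome 9, 77754535 to 77794485, plus strand) read 52.9, 109 and 79.3 FPKM in ACSS2-HKO livers, against 55.9, 94.2 and 66.8 FPKM in ACSS2-flox livers. The spread within each genotype was larger than the difference between them, and the log2 fold change of 0.12 ± 0.30 (limma adjusted p = 0.937) changed sign under 6 of 18 alternatives. Gclm (chromosome 3, 122245557 to 122270732, plus strand) read 64.0, 94.6 and 64.8 FPKM in ACSS2-HKO livers, against 89.1, 86.6 and 75.5 FPKM in ACSS2-flox livers. ACSS2-HKO replicate 2 was its highest library and the other ACSS2-HKO libraries its lowest, and the log2 fold change was -0.19 ± 0.21 (limma adjusted p = 0.852). It was below 0 under all 18 alternatives, from -0.37 to -0.05, and none passed the test. The ratio of Gclc to Gclm, the subunits of 1 enzyme, was 0.826, 1.15 and 1.22 in ACSS2-HKO livers and 0.627, 1.09 and 0.885 in ACSS2-flox livers, with overlap.

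Gsr (chromosome 8, 33652523 to 33698163, plus strand) read 19.7, 27.7 and 29.2 FPKM in ACSS2-HKO livers, against 13.6, 23.6 and 17.9 FPKM in ACSS2-flox livers. Only ACSS2-flox replicate 2 reached into the ACSS2-HKO range. The log2 fold change was 0.47 ± 0.24 (limma p = 0.0895, adjusted p = 0.673; exact permutation p = 0.2), and it was 0.28 without ACSS2-flox replicate 1.

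The conjugation and epoxide genes, Ugdh and Ephx1, varied more between libraries of 1 genotype than between genotypes. Ugdh (chromosome 5, 65413221 to 65435949, minus strand) encodes UDP-glucose dehydrogenase, which makes the UDP-glucuronic acid used in glucuronidation. It read 48.95, 96.1 and 77.2 FPKM in ACSS2-HKO livers, against 46.0, 121 and 58.1 FPKM in ACSS2-flox livers. Replicate 2 was the highest library of each genotype, and the log2 fold change of 0.06 ± 0.38 (limma adjusted p = 0.979) changed sign under 8 of 18 alternatives. The mean FPKM was 74.1 ± 23.7 in ACSS2-HKO and 74.9 ± 40.1 in ACSS2-flox livers (SD, n = 3 each), the opposite order to the log2 values. Ephx1 (chromosome 1, 180976210 to 181020904, minus strand) encodes the microsomal epoxide hydrolase, which opens epoxides to diols, and it was the most abundant of the 10 transcripts. It read 380, 369 and 198 FPKM in ACSS2-HKO livers, against 129, 326 and 262 FPKM in ACSS2-flox livers. The 2 libraries that stand apart held the lowest value of their genotype, and the fold change depended on both. It was 0.45 ± 0.39 with all libraries (limma adjusted p = 0.793), 0.05 without ACSS2-flox replicate 1 and 0.75 without ACSS2-HKO replicate 3, where 1 genotype has 2 libraries. GENCODE M21 places a pseudogene on the same strand within Ephx1 and another within Gclm, which could share their fragments. The protein-coding Gm43552 and the gene Gm43289 overlap Ugdh on the same strand, and a snoRNA gene overlaps Gsr. None of these overlapping genes is in the expression table.

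Osgin1 (chromosome 8, 119434124 to 119446256, plus strand) encodes an oxidative stress induced growth inhibitor and carries TGAGTCAGC in the printed stretch. It read 77.9, 78.0 and 90.4 FPKM in ACSS2-HKO livers, against 46.5, 58.1 and 87.2 FPKM in ACSS2-flox livers. The ACSS2-HKO libraries were close to each other, and ACSS2-flox replicate 3 lay among them. The log2 fold change was 0.40 ± 0.24 (limma adjusted p = 0.706; exact permutation p = 0.3) and 0.20 without ACSS2-flox replicate 1.

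**Figure D3:**
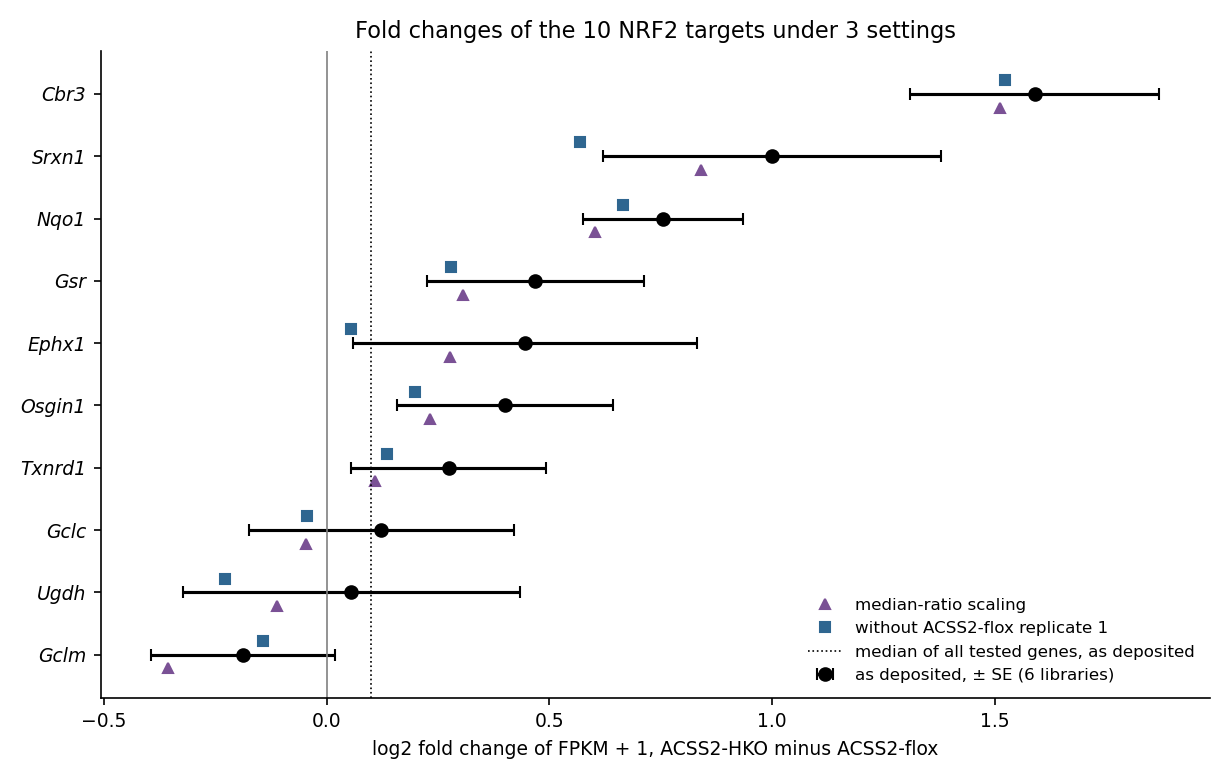
Log2 fold change (ACSS2-HKO minus ACSS2-flox) of the 10 NRF2 targets on the horizontal axis, with black points and bars for the values as deposited ± SE over 6 libraries, triangles for median-ratio scaling and squares for the fit without ACSS2-flox replicate 1; the dotted line is the median of all tested genes, 0.10. Cbr3, Srxn1 and Nqo1 lie above the other 7 genes under all 3 settings, while Gclc and Ugdh lie on both sides of 0.

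The levels of the 10 transcripts spanned a wide range in both genotypes. In ACSS2-HKO livers the mean FPKM was highest for Ephx1 at 316, followed by Osgin1 at 82.1, Gclc at 80.3, Gclm at 74.5 and Ugdh at 74.1, then Srxn1 at 37.4, Txnrd1 at 36.5 and Gsr at 25.5, with Nqo1 at 12.6 and Cbr3 at 3.46 at the low end. In ACSS2-flox livers Ephx1 led at 239, followed by Gclm at 83.8, Ugdh at 74.9, Gclc at 72.3 and Osgin1 at 63.9, then Txnrd1 at 29.9, Srxn1 at 20.01 and Gsr at 18.4, with Nqo1 at 7.04 and Cbr3 at 0.410. Osgin1, Gclc, Gclm and Ugdh were within their spread of each other in both genotypes, as were Srxn1 and Txnrd1 in ACSS2-HKO livers and Srxn1 and Gsr in ACSS2-flox livers. Nqo1 and Cbr3, although NRF2 targets like the others, stayed the least abundant of the 10 in both.

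The values of the 10 genes also differed between libraries of 1 genotype. ACSS2-flox replicate 1 held the lowest value of all 6 libraries for 8 of the 10 genes, and ACSS2-HKO replicate 3 the highest for 5. Measured from the ACSS2-flox mean, the median of the 10 genes was 0.23, 0.61 and 0.53 in ACSS2-HKO replicates 1, 2 and 3 (log2), against -0.36, 0.31 and 0.02 in ACSS2-flox replicates 1, 2 and 3. ACSS2-flox replicate 2 was thus above ACSS2-HKO replicate 1, and the genotypes overlapped in this median. Against ACSS2-flox replicates 2 and 3, replicate 1 also read lower the longer the gene: with the tested genes in 10 bins of length, its median difference was 0.28 in the bin of shortest genes (median length 914 bases) and -0.55 in the bin of longest genes (9545 bases). For the NRF2 targets, whose lengths ran from 1167 to 4019 bases, the median of that difference was -0.53 and 9 of 10 were below 0. Srxn1 at -1.29, Ephx1 at -1.18 and Ugdh at -0.85 lay farthest below the median of all genes of like length in that library. Osgin1 at -0.61, Gsr at -0.57, Gclc at -0.50, Nqo1 at -0.27 and Cbr3 at -0.20 were also below that median. Txnrd1 at -0.41 was close to it, and Gclm at 0.14 was higher. After a loess correction for length, 7 of 10 genes had a fold change above 0, against 47.8% of all tested genes, with a median of 0.32 against -0.01. After median-ratio scaling, which moved the median of all genes to -0.04, 7 of 10 genes were above 0, against 43.9%. Nqo1 was higher without overlap there, a pattern that 6.28% of tested genes showed. So was Cbr3, but its entry through its ACSS2-HKO values made that likely. Cbr3 is among the genes above 0 under both corrections.

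**Figure D4:**
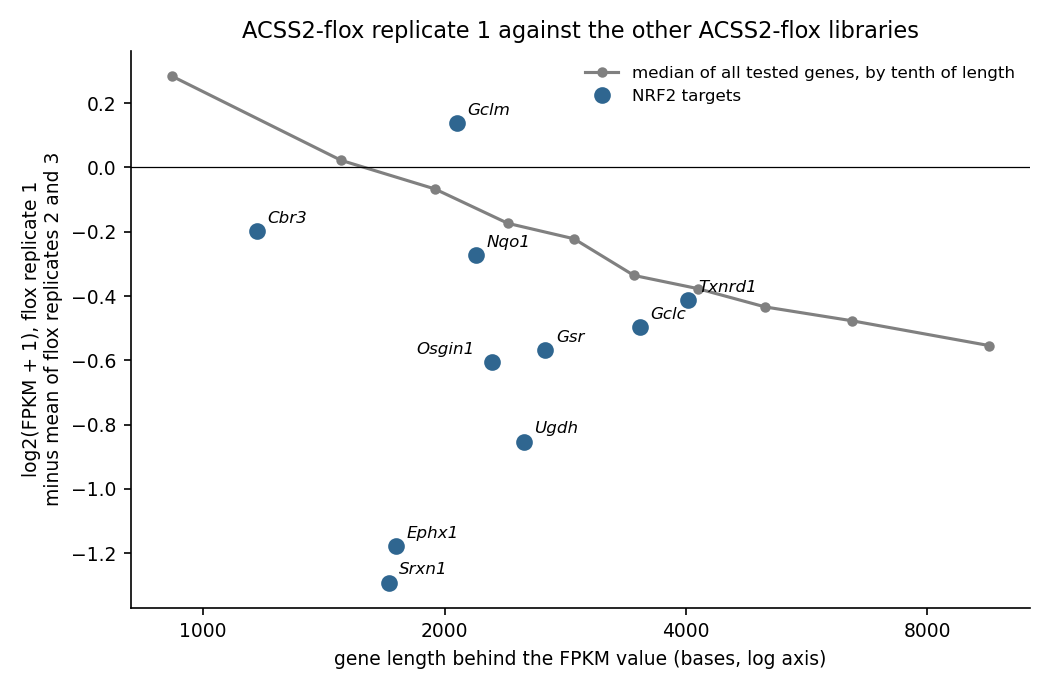
Difference of log2(FPKM + 1) between ACSS2-flox replicate 1 and the mean of ACSS2-flox replicates 2 and 3, against the gene length behind the FPKM value in bases (log axis), with the median of all tested genes in 10 bins of length in grey and the NRF2 targets as blue points. The grey line falls with length, and 9 of the 10 targets lie below 0, Srxn1 lowest at -1.29.

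The regulators of the pathway gave fold changes on both sides of 0. Nfe2l2 read 35.6, 33.2 and 37.4 FPKM in ACSS2-HKO livers, against 28.5, 27.9 and 54.0 FPKM in ACSS2-flox livers, 0.01 ± 0.26 apart on the log2 scale (limma adjusted p = 0.997). Keap1 read 14.5, 13.8 and 14.8 FPKM in ACSS2-HKO livers, against 10.98, 14.3 and 14.2 FPKM in ACSS2-flox livers, 0.13 ± 0.17 apart on the log2 scale (limma adjusted p = 0.880). NRF2 is controlled chiefly as a protein, which these libraries do not measure. Over the list of 16 regulators, 11 were above 0 and 5 below, with a median of 0.05 and none past the test, where 66% of all tested genes were above 0. The split was 5 above and 11 below under median-ratio scaling and under the length correction, and 7 above and 9 below without ACSS2-flox replicate 1. Dpp3, whose product binds KEAP1, read 18.6, 18.2 and 17.9 FPKM in ACSS2-HKO livers, against 9.20, 12.6 and 15.2 FPKM in ACSS2-flox livers (log2 fold change 0.56 ± 0.20, limma adjusted p = 0.637). Its groups did not overlap, nor did those of Mafk, which encodes a small MAF partner (0.30 ± 0.18), and of Rxra, which encodes a nuclear receptor that can bind NRF2 (0.34 ± 0.22). They were the 3 of 16 regulators higher without overlap, a count near the 12.5% of all tested genes. Maff, the gene of another small MAF protein, was at -0.59 ± 0.30.

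The partners of the 10 genes in the glutathione and thioredoxin systems had 10 of 20 tested genes above 0 and 10 below as deposited. Among all tested genes, 66% were above 0. The median of the partners was -0.01 and none passed the test. Of them, 3 were higher without overlap and 1 lower, against 12.5% and 2.94% of all tested genes. Under median-ratio scaling 4 were above 0 and 16 below, with a median of -0.18, and after the length correction 7 were above and 13 below. Gpx3, which encodes the secreted glutathione peroxidase, read 12.3, 8.42 and 17.4 FPKM in ACSS2-HKO livers, against 5.10, 5.07 and 5.84 FPKM in ACSS2-flox livers, without overlap (log2 fold change 1.06 ± 0.25, limma adjusted p = 0.554; exact permutation p = 0.1). Gpx4, whose product reduces lipid peroxides and guards against ferroptosis, averaged 366 ± 26.1 FPKM in ACSS2-HKO and 290 ± 19.9 FPKM in ACSS2-flox livers (SD, n = 3 each), also without overlap (0.34 ± 0.18, limma adjusted p = 0.675). Ggct, a gene of glutathione breakdown, lay wholly below its ACSS2-flox values in ACSS2-HKO livers (-0.47 ± 0.23), and Prdx6, a peroxiredoxin gene, was at -0.33 ± 0.21 with overlap. NADPH feeds both reductases. Of the 7 genes that supply it, 3 were above 0 and 4 below, where 66% of all tested genes were above 0, and their median was -0.06. None was higher without overlap and 1, Idh1, was lower, against 12.5% and 2.94% of all tested genes. G6pdx, the entry of the pentose phosphate pathway, was at 0.54 ± 0.37, and at 0.14 without ACSS2-HKO replicate 3. Taldo1, of the later steps, was at 0.28 ± 0.19, while Idh1, the cytosolic isocitrate dehydrogenase gene, was at -0.42 ± 0.23 and Me1, for malic enzyme, at -0.75 ± 0.62, or -1.39 without ACSS2-flox replicate 1. None passed the test.

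Conjugation and export genes include other well known NRF2 targets of mouse liver. Of 23 tested, 18 were above 0 and 5 below, where 66% of all tested genes were above 0. Their median was 0.25, against 0.10 over all tested genes, and none passed the test. In this list 2 genes were higher without overlap and 1 lower, against 12.5% and 2.94% of all tested genes. Those higher at an unadjusted limma p under 0.05 numbered 5, against 6.09%, and 0 without ACSS2-flox replicate 1. Under median-ratio scaling 15 were above 0 and 8 below (43.9% of all genes above). After the length correction 18 were above and 5 below (47.8% above), and without ACSS2-flox replicate 1, 17 and 6 (52.4% above). The medians there were 0.14, 0.17 and 0.20, against -0.04, -0.01 and 0.02 over all tested genes. Gstm3, for a glutathione transferase, read 240, 288 and 181 FPKM in ACSS2-HKO livers, against 65.7, 81.3 and 191 FPKM in ACSS2-flox livers (log2 fold change 1.20 ± 0.38, limma adjusted p = 0.637). Abcc3, for an export pump of glucuronides, read 60.3, 33.9 and 43.9 FPKM in ACSS2-HKO livers, against 18.5, 31.5 and 29.2 FPKM in ACSS2-flox livers, without overlap (0.78 ± 0.27, limma adjusted p = 0.637). The transferase gene Gstp1 did not overlap either (0.87 ± 0.36) and Gstm4 did (0.76 ± 0.28). Gst genes have close copies, and the sources used here do not say how their shared fragments were divided.

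The haem and iron targets had 6 of 7 genes above 0, where 66% of all tested genes were. Their median was 0.16, against 0.10 over all tested genes, and -0.01 under median-ratio scaling, against -0.04. Hmox1, for haem oxygenase 1 and itself a classical NRF2 target, read 29.2, 23.8 and 190 FPKM in ACSS2-HKO livers, against 13.3, 54.6 and 45.5 FPKM in ACSS2-flox livers. ACSS2-HKO replicate 3 alone put the ACSS2-HKO mean above that of ACSS2-flox, and the log2 fold change of 0.65 ± 0.79 was -0.29 without it. Slc48a1, for a haem transporter, read 28.7, 24.0 and 28.7 FPKM in ACSS2-HKO livers, against 13.9, 19.98 and 17.7 FPKM in ACSS2-flox livers, without overlap (0.64 ± 0.19, limma adjusted p = 0.631; exact permutation p = 0.1). Fth1, for ferritin heavy chain, was at 0.37 ± 0.26 and Blvrb, for a biliverdin reductase, at 0.16 ± 0.20, both with overlap. Of the paralogs and path neighbours of the 10 genes, 2 of 6 tested were above 0, where 66% of all tested genes were, and the median was -0.22. Besides Nqo2 (-0.33 ± 0.26) and Cbr1 (0.39 ± 0.22), these included Ephx2, for the soluble epoxide hydrolase, at -0.37 ± 0.29 and Uxs1, whose product uses the UDP-glucuronic acid that UGDH makes, at 0.21 ± 0.18. No gene of these lists passed the test.

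**Figure D5:**
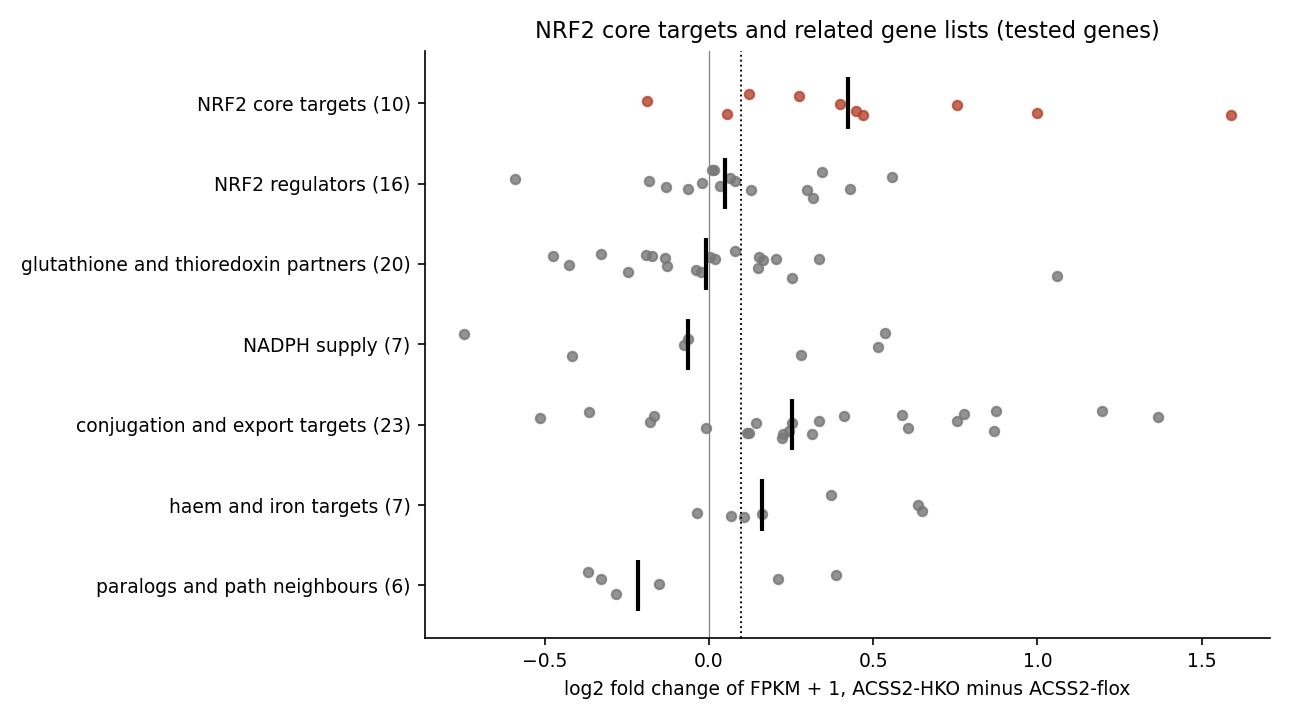
Log2 fold change (ACSS2-HKO minus ACSS2-flox) of each tested gene of the NRF2 core targets (red) and of 6 related lists (grey), with the number of tested genes in brackets, a black bar at each list's median, a dotted line at the median of all tested genes and a grey line at 0. The median is 0.42 for the core targets, 0.25 for conjugation and export, 0.16 for haem and iron, and at or below 0.05 for the other 4 lists.

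Summed markers of neutrophils, of macrophages and of the acute phase response were higher in every ACSS2-HKO than in every ACSS2-flox library. No tested marker of the 8 lists passed the test. In bulk liver, fewer cells of a type and less RNA per cell cannot be told apart. The 10 neutrophil markers summed to 39.6 to 362 FPKM in ACSS2-HKO and 8.39 to 18.0 FPKM in ACSS2-flox libraries. All 10 had a higher mean in ACSS2-HKO, with Ly6g at 0 in all ACSS2-flox libraries and Camp in some libraries. Only 5 of the 10 averaged 1 FPKM or more and were tested, so that count of means includes untested low genes. The 12 Kupffer cell and macrophage markers summed to 882 to 2180 FPKM in ACSS2-HKO and 466 to 756 FPKM in ACSS2-flox libraries, with 12 of 12 above 0, against 66% of all tested genes, and 8 of 12 higher without overlap, against 12.5%. Both sums peaked in ACSS2-HKO replicate 3. Values there were also the highest for Cbr3, Srxn1, Txnrd1, Gsr, Osgin1 and Hmox1, but not for Nqo1, Gclc, Gclm, Ugdh or Ephx1. The 9 acute phase genes summed to 8637 to 34861 FPKM in ACSS2-HKO and 5083 to 6930 FPKM in ACSS2-flox libraries, with 9 of 9 above 0 and 7 of 9 higher without overlap, against the same 66% and 12.5% of all tested genes. The hepatocyte markers were above 0 for 1 of 10 genes, against 66% of all tested genes, and 2 were lower without overlap, against 2.94%. Their sum was lower in every ACSS2-HKO than in every ACSS2-flox library, by a narrow margin of 61396 against 61788 FPKM. Sums overlapped between genotypes for the remaining lists. The 7 cholangiocyte markers, 2 of them tested, summed to 38.7 to 74.4 FPKM in ACSS2-HKO and 30.3 to 59.6 FPKM in ACSS2-flox libraries. Cftr among them was at 0 in some libraries. The 7 lymphocyte markers, 3 of them tested, summed to 4.58 to 10.2 FPKM in ACSS2-HKO and 4.18 to 6.81 FPKM in ACSS2-flox libraries. The 6 endothelial markers summed to 119 to 144 FPKM in ACSS2-HKO and 35.0 to 179 FPKM in ACSS2-flox libraries. All 6 were above 0, and none was without overlap. The 7 stellate markers summed to 123 to 170 FPKM in ACSS2-HKO and 87.9 to 145 FPKM in ACSS2-flox libraries. Of these, 6 of 7 were above 0 and 4 of 7 higher without overlap, against 66% and 12.5% of all tested genes. The part of these markers in the NRF2 target values was not tested. Without ACSS2-HKO replicate 3 the log2 fold change was 0.78 for Nqo1, 1.27 for Cbr3 and 0.84 for Srxn1.

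Genes outside the list were ranked by likeness to the mean profile of the 10 genes over the 6 libraries, as the root-mean-square distance between log2(FPKM + 1) values centred on each gene's mean. That profile was 0.05, 0.35 and 0.34 in ACSS2-HKO replicates 1, 2 and 3, against -0.63, 0.08 and -0.19 in ACSS2-flox replicates 1, 2 and 3, so its largest departure was the low value of ACSS2-flox replicate 1. The 5 nearest genes were Slc35e1 at a distance of 0.0547, Akt1 at 0.0563, Ankrd13a at 0.0598, Fn1 at 0.0644 and Nacc1 at 0.0653. Akt1, the kinase gene, read 26.5, 34.0 and 34.1 FPKM in ACSS2-HKO livers, against 17.8, 30.2 and 22.5 FPKM in ACSS2-flox livers. Fn1, for fibronectin, read 252, 279 and 266 FPKM in ACSS2-HKO livers, against 149, 242 and 202 FPKM in ACSS2-flox livers, and it was the only one of the 5 without overlap. Of the 10 genes themselves, Gsr was nearest to their common profile at 0.0832 and Cbr3 farthest at 0.662, so all 10 lay farther from it than these 5 genes did.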

How the data were processed

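The authors deposited 1 table with an FPKM value for each gene and library. Per the submitters' processing notes, the genome build is mm10 and DESeq2 was used, with no role stated. Aligner, counting tool, annotation, strand setting and filters: not given in the sources used here. Each FPKM value was traced back to a whole fragment count (within 0.01) divided by 1 length and 1 total, which worked for 16129 of 16135 genes (99.96%). The depth, lengths and Poisson intervals (95%, counting error only) rest on this. The search and the fit were tested on simulated data.

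Tests used limma 3.58.1 in R 4.3.3 (lmFit, eBayes with a mean-variance trend) on log2(FPKM + 1), a pseudocount of 1 FPKM that understates the change of low genes. Genes averaging 1 FPKM or more entered. Exact permutation tests used the 20 arrangements of the 6 libraries. Groups came from the genotype labels. Alternatives were no filter, a filter at 5 FPKM, pseudocounts of 0.1 and 5, median-ratio and quantile scaling, no variance trend, array weights, voom on the recovered fragments, a loess correction for gene length (span 0.5), the replicate number as a block, and libraries left out. Two-sided p-values were adjusted by Benjamini-Hochberg over all tested genes.

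The 10 genes, 6 pathway lists and 8 marker lists were chosen with earlier results of these data known. The text names all 10 genes, Acss2, Nfe2l2, Keap1, Hmox1, up to 4 genes of smallest p in each pathway list and the 5 genes nearest to the mean profile. Gene spans come from GENCODE M21 (GRCm38) and promoter windows from RefSeq (GRCm38.p6), matched by gene ID. GENCODE genes that overlap a named gene can share its fragments where strand was not counted.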

Additional observations from a re-analysis of the deposited data

How the results depend on the processing

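No alternative called any of the 10 NRF2 targets. Over all genes, no test passed in 16 of the 18 alternatives fitted, and the replicate block called 4 genes and the fit without ACSS2-HKO replicate 2 called 3 (range 0 to 3 with each library left out). The sources used here do not say whether the replicate numbers pair the libraries, so the block is not read as a paired analysis. The deviations of same-numbered libraries from their group means correlated at 0.013, 0.003 and -0.063. With the outlying ACSS2-flox replicate 1 and ACSS2-HKO replicate 3 in those means, these values cannot decide it. The number of targets without overlap, higher in ACSS2-HKO, was 3 to 5 with each library left out, and 5 without ACSS2-HKO replicate 1. It includes Cbr3, which entered the test only through its ACSS2-HKO values.

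Signs turned for Gclc, Ugdh, Nfe2l2, Keap1, Blvrb and Hmox1. Under median-ratio scaling the log2 fold change was -0.0447 for Gclc, -0.112 for Ugdh, -0.154 for Nfe2l2, -0.0286 for Keap1 and -0.00768 for Blvrb. The length correction gave -0.0046 for Gclc, -0.0577 for Ugdh, -0.102 for Nfe2l2 and -0.00064 for Keap1. Array weights gave -0.12 for Gclc, -0.33 for Ugdh, -0.0697 for Nfe2l2 and -0.30 for Hmox1, and quantile normalization gave -0.0382 for Nfe2l2. Without both ACSS2-HKO replicate 3 and ACSS2-flox replicate 1 the values were -0.0636 for Gclc, -0.29 for Ugdh, -0.17 for Nfe2l2, -0.0069 for Keap1 and -0.89 for Hmox1. With each library left out, the lowest and highest values were -0.12 and 0.39 for Gclc, -0.23 and 0.46 for Ugdh, -0.15 and 0.32 for Nfe2l2, 0.01 and 0.19 for Keap1, and -0.29 and 1.19 for Hmox1. The causes were not tested. With the filter at 5 FPKM, Cbr3 was not tested. The median over the 10 genes without Cbr3, an alternative chosen after seeing the data, was 0.40, and 0.14 when ACSS2-flox replicate 1 was left out as well.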
